A study of Mus musculus with 17 samples.

Results

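Gata4 and Gata6 are 2 of the 22380 protein-coding genes of the mouse annotation. They encode zinc finger transcription factors that bind the GATA word in DNA. Both are known as regulators of primitive and extraembryonic endoderm, and both also act in heart and gut development. A gene's contacts were taken from all loops with an anchor within 5 kb of one of its start sites. By this rule 122 of the 1211657 loops in the data belonged to the pair, of which 87 belonged to Gata4 and 35 to Gata6.

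The loops come from H3K27ac HiChIP, which counts read pairs joining chromatin regions in which histone H3 is acetylated at lysine 27, as is usual at active promoters and enhancers. All libraries are from embryoid bodies (EBs) that were made in hanging drops from a mouse embryonic stem cell line, exposed to retinoic acid (RA) at 0.5 µM and taken at RA-day 4. Bulk libraries (n = 12) hold unsorted EB cells, and the libraries labelled cluster2 (n = 5) hold cells that the study sorted as double positive for the surface proteins EpCAM and CD38. Unsorted EBs contain such cells too, so the groups are not exclusive. In bulk data, fewer cells of a type and less signal per cell cannot be told apart. Read pairs in loops ranged from 65178 to 241202 per bulk library and from 50508 to 118179 per double positive library.

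The anchors of both groups differed in number, and this bears on each value given for Gata4 and Gata6. Overlapping anchors were joined into 216081 anchors, of which 200999 were used by bulk loops alone, 8 by double positive loops alone, and 15074 by both. A 0 in the double positive libraries at an anchor that none of their loops used is therefore a missing anchor as much as a low count, and which of these applies was not tested. Results are given over all anchors and again over the 15074 shared anchors. Because nearly every anchor of the double positive loops is shared, the second setting keeps their read pairs and drops most bulk ones.

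Gata4 lies on the minus strand of chromosome 14 (mm9) from 63817759 to 63890529, and its annotated start sites fall in 3 places along the gene. Of 6 anchors within 5 kb of them, only 2 carried double positive read pairs. The first of these, chr14:63862737-63865995, covers start sites inside the gene and overlaps an exon. The other, chr14:63888762-63891350, covers the outermost start sites.

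The largest share of the Gata4 read pairs of the double positive cells led to a single region upstream of the gene. It is the anchor chr14:63955945-63962420, whose middle is 68.7 kb upstream of the outermost Gata4 start site. No annotated gene overlaps it, and Gata4 has the nearest start site of any protein-coding gene, 65.4 kb from its edge. GATA words, that is GATA with A or T before it and A or G after it, were searched in it on both strands. The whole anchor of 6476 bases held 9 of them. Among 2521 anchors within 10% of its width the median was 14, and 82.9% held at least as many, so the region was not rich in these words. The words are matches of letters and not measured binding sites.

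Gata6 lies on the plus strand of chromosome 18 with its start site at 11052508, inside the anchor chr18:11051117-11054822. That anchor also overlaps an exon of the lincRNA gene 1010001N08Rik, so contacts of both genes cannot be told apart. A further Gata6 anchor, chr18:11057035-11059820, had 4 bulk read pairs and no double positive ones.

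Gata4 contacts were higher in the double positive cells than in bulk. The read pairs of the 5 double positive libraries were 46, 46, 21, 33 and 63, and those of the 12 bulk libraries ranged from 1 to 13 with a median of 4.5. As normalized counts (CPM), the double positive values were 168, 225, 165, 260.2 and 259. Bulk values were 20.5 at the lowest, 68.6 at the median and 93.2 at the highest. The groups did not overlap: the lowest double positive library lay above the highest bulk library. The mean was 215 ± 46.8 (SD, n = 5) against 62.7 ± 21.5 CPM (SD, n = 12). The log2 fold change was 1.73 (SE 0.24, adjusted p = 2.13e-07, edgeR quasi-likelihood test with Benjamini-Hochberg adjustment over 14115 genes), or 3.33-fold. Of all genes tested, 20.6% passed the threshold of 0.05 as higher and 42.8% as lower, and 7.22% had each double positive library above all bulk libraries. Against the median log2 fold change of all genes, which was -0.52, Gata4 stood 2.25 higher.

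For Gata6 the difference did not pass the test. Its double positive libraries had 8, 8, 4, 6 and 10 read pairs, or 29.2, 39.1, 31.5, 47.3 and 41.1 CPM. In bulk the values ran from 0 to 14 read pairs, and from 0 through a median of 23.1 to 159 CPM. The bulk libraries enclosed the double positive ones: 3 lay above all of them and 7 below all of them. Bulk replicate 1 alone gave the value of 159 CPM, and bulk replicates 10 and 12 had no Gata6 read pair. The mean was 37.6 ± 7.37 CPM in double positive cells and 36.1 ± 43.7 CPM in bulk, with a log2 fold change of 0.02 (SE 0.48, adjusted p = 0.973, edgeR). Without bulk replicate 1 the log2 fold change was 0.50.

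The scaling of the libraries decided the call for Gata6 but not for Gata4. With the main scaling (TMM) the median over all genes was -0.52, and with library size alone it was 1.21. Library size alone gave Gata6 a log2 fold change of 1.76 (adjusted p = 0.00106, edgeR) and Gata4 one of 3.51. Relative to the median of all genes the same Gata6 values were 0.54 and 0.55 higher, so nearly the whole change was that of the median. On shared anchors the log2 fold change was 2.58 for Gata4 and 1.20 for Gata6, beside a median of 0.42. Bulk kept 16 and 7 read pairs of Gata4 and Gata6 there, below the minimum of 20 for a test. Both genes reached the minimum only through their double positive read pairs, so no test is given. Of the 9845 genes tested on shared anchors 47.9% had fewer than 20 bulk read pairs there, and values on shared anchors are given as a description.

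**Figure D1:**
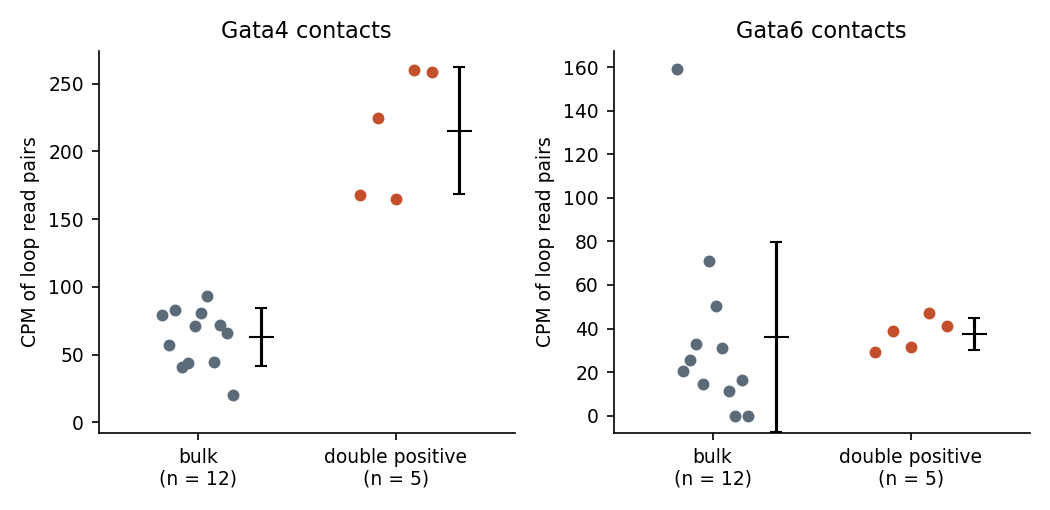
Contacts of Gata4 (left) and Gata6 (right) in CPM of loop read pairs (vertical axis), a point for each library of the bulk (n = 12) and double positive (n = 5) groups, with the mean and SD as a bar beside them. For Gata4 the double positive points lie between 165 and 260.2 CPM, above all bulk points, and for Gata6 they lie within the bulk range of 0 to 159 CPM.

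Whether both genes differed between the groups to an unequal degree was tested by their ratio. The log2 ratio of Gata4 to Gata6 contacts, each as CPM + 1, was 2.48 ± 0.10 (SD, n = 5) in double positive cells and 1.72 ± 1.93 (SD, n = 12) in bulk. The double positive libraries spread little, from 2.36 to 2.63, and bulk ran from -0.99 to 6.19. The difference of 0.76 did not pass an exact two-sided permutation test over 6188 splits (p = 0.411), for which the smallest possible p is 0.000162. The 2 bulk libraries above the double positive range are those without a Gata6 read pair, whose ratio is set by the pseudocount. With a pseudocount of 10 CPM the difference was 1.19 (p = 0.0173, exact permutation test).

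The 2 Gata4 start site anchors that double positive loops used both carried more read pairs in the double positive libraries. They share a loop with each other, so their counts are not independent. Over all loops of chr14:63862737-63865995 the double positive libraries had 144 read pairs and bulk had 28, and the log2 fold change was 2.66 (SE 0.36, adjusted p = 8.92e-09, edgeR). The outermost anchor, chr14:63888762-63891350, had 81 against 12 read pairs. It reached the minimum of 20 read pairs for a test only through the double positive libraries, so no test is given for it. At either anchor each double positive library lay above each bulk library in CPM. The share of all anchors that separate in this way was not counted, so nothing is read from this. Of all 43452 anchors tested, 10.5% were higher, a share limited by the same minimum. The other 4 Gata4 anchors had 12, 5, 16 and 8 bulk read pairs and none in double positive libraries, below the minimum for a test. At Gata6 the start site anchor had 36 against 39 read pairs and a log2 fold change of 0.19 (SE 0.46, adjusted p = 0.693, edgeR), and a log2 fold change of 1.43 on shared anchors, where most bulk read pairs are dropped.

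The read pairs lay on fewer loops in double positive cells, as they did over the whole data. In double positive cells 209 Gata4 read pairs fell on 37 loops, a mean of 5.65 per loop, and the fullest loop held 65. In bulk 73 read pairs fell on 58 loops, a mean of 1.26, and 49 of the loops had 1 read pair. Over all loops the means were 3.52 in double positive cells and 1.42 in bulk. There were 8 Gata4 loops seen in both groups, or 21.6% of the loops seen in double positive cells and 13.8% of those seen in bulk, where the shares over all loops were 39.7% and 4.04%. Gata6 had 36 double positive read pairs on 6 loops and 41 bulk read pairs on 33 loops, with 4 loops in both. All double positive read pairs of either gene lay on shared anchors, as did 99.99% of those over all loops. In bulk it was 21.9% of the read pairs of Gata4 and 17.1% of those of Gata6, beside 12.3% over all loops. Whether the shares of Gata4 and Gata6 differ from these was not tested.

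There were 4 Gata4 loops and 1 Gata6 loop with the 20 read pairs in at least 5 libraries needed for a test. Each reached this minimum mainly through its double positive read pairs, so that a difference was largely set by the minimum. All 5 were higher at an adjusted p under 0.05, as were 38.1% of all 5369 loops tested, and nothing is read from this. Their read pairs are given as a description, with no fold change or test.

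The fullest loop joined the Gata4 anchor chr14:63862737-63865995 to the upstream region over 94.8 kb. It had 14, 12, 6, 10 and 23 read pairs in the double positive libraries and 4 in bulk, spread over 3 of the 12 libraries. The loop reached the minimum for a test mainly through these double positive read pairs, so the counts are a description only. The outermost start site anchor reached the same upstream region over 69.1 kb, with 6, 11, 3, 6 and 6 read pairs against 1 in bulk.

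The remaining loops had fewer read pairs. Gata4 contacted chr14:63811359-63815970, at the start of Neil2, over 50.7 kb. Neil2 is a DNA glycosylase of base excision repair. This loop had 5, 4, 0, 4 and 7 double positive read pairs and 1 in bulk, so that double positive replicate 3 did not differ from most bulk libraries. The loop between the 2 Gata4 start site anchors, 25.7 kb long, had 2, 3, 3, 3 and 5 read pairs against 4 in bulk.

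For Gata6 the loop joined the start site anchor to chr18:10935019-10937027, 116.9 kb away. It had 5, 4, 2, 4 and 5 read pairs in double positive libraries and 3 in bulk, in 2 of the 12 libraries.

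**Figure D2:**
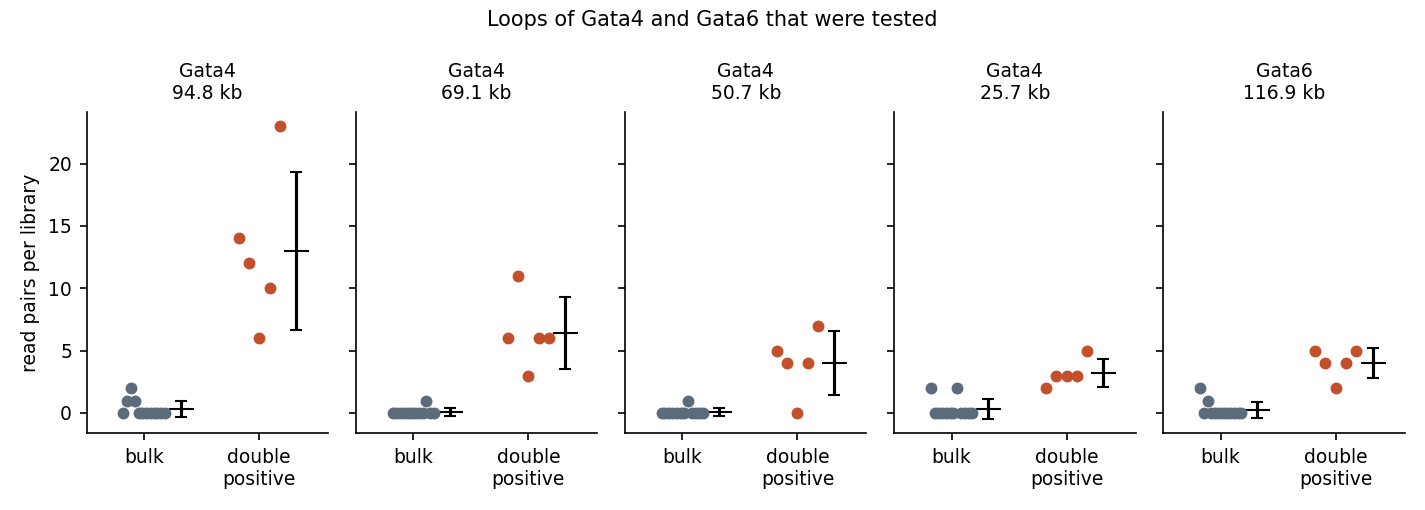
Read pairs per library (vertical axis) for the 5 loops of Gata4 and Gata6 that reached the minimum for a test, headed by gene and span, with a point for each bulk (n = 12) and double positive (n = 5) library and the mean and SD as a bar. The 94.8 kb Gata4 loop has the most read pairs, 6 to 23 in the double positive libraries, and no bulk library exceeds 2 in any of the panels.

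The 6 partners with the most Gata4 read pairs lay on both sides of the gene. The upstream region took 97 of the 209 double positive read pairs, or 46.4% (95% Clopper-Pearson interval 39.5 to 53.4%), and 9 of the 73 bulk read pairs, or 12.3%. On shared anchors it took 5 of 16 bulk read pairs, or 31.2% (95% interval 11.02 to 58.66%), an interval that overlaps that of the double positive cells. These intervals cover counting error only, as PCR copies of a read are not independent molecules. By library it took 20, 23, 9, 16 and 29 double positive read pairs, the largest share of the Gata4 read pairs in all 5. The Neil2 anchor came next with 28 double positive and 2 bulk read pairs. An anchor at Fdft1, the gene of squalene synthase in sterol synthesis, had 10 against 8, and so was the only one of the 6 with nearly as many read pairs in bulk. The other 3 partners had few counts: chr14:63694188-63696974 with no start site near it (7 against 1), the start of Ctsb, the gene of the lysosomal protease cathepsin B (4 against 2), and chr14:64075984-64078409 in an intron of Fam167a (5 against 1).

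**Figure D3:**
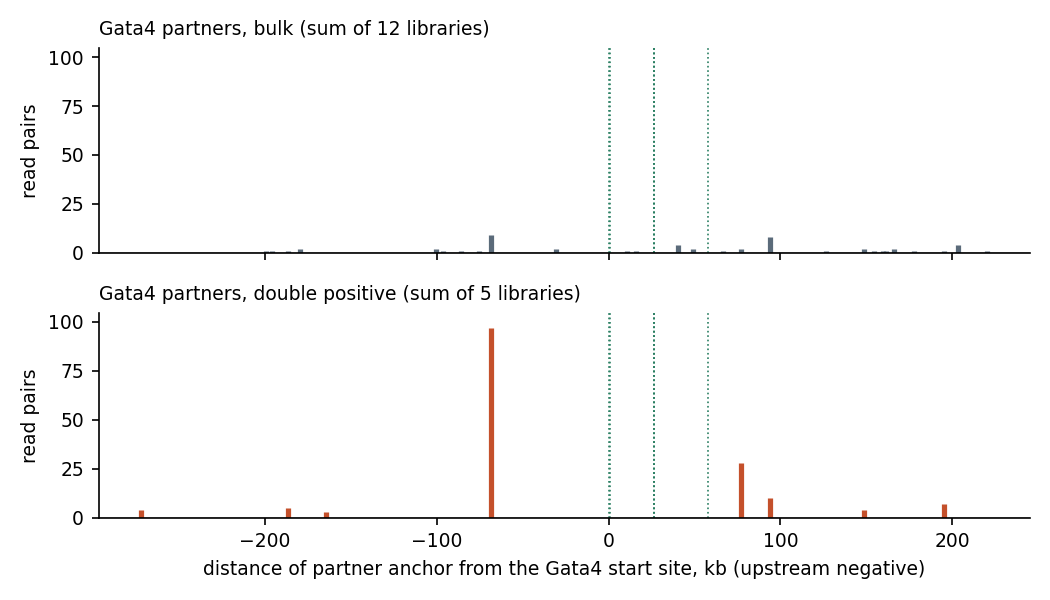
Partner anchors of Gata4 by distance of their middle from the outermost start site (horizontal axis, kb, upstream negative) and summed read pairs (vertical axis), above for the 12 bulk and below for the 5 double positive libraries, with dotted lines at the annotated start sites. The upstream partner at 68.7 kb reaches 97 read pairs in double positive cells and 9 in bulk.

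The upstream region also had contacts that left out Gata4. Its own total was 251 read pairs in double positive cells and 70 in bulk, of which Gata4 took 38.6% and 12.9%. Without Gata4 it had 154 and 61 read pairs. The region was chosen by its Gata4 read pairs, so no test is given for it. Next were the Ctsb anchor with 24 read pairs, the anchor within Fam167a with 19, and the anchors of Fdft1 and Neil2 with 16 each. In bulk these 4 had between 0 and 2 read pairs. These loops reached the minimum for a test, where they did, through their double positive read pairs, and no test is given for them. The loop between the neighbouring Fdft1 and Neil2 anchors had 16 against 9 read pairs. The fullest bulk loop of the upstream region went the other way. It led to chr14:63964169-63967826, with 12 bulk read pairs and none in double positive libraries.

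Gata6 had 2 partners with more than 3 double positive read pairs, and both lay upstream. The nearer, chr18:10935019-10937027, took 20 of 36 double positive read pairs, or 55.6% (95% interval 38.1 to 72.1%), and 3 of 41 bulk ones, or 7.32%. On shared anchors the bulk share was 3 of 7, or 42.9% (95% interval 9.90 to 81.6%), so that no difference in share was detectable there. The farther, chr18:10902447-10906080, 148 kb from the start site, had 2, 2, 1, 2 and 3 read pairs in the double positive libraries and 1 in bulk. Neither overlaps an annotated gene. They were also joined to each other by a loop of 31.8 kb with 15 double positive read pairs and none in bulk. The other 4 partners had 3 double positive read pairs at most, and they include the start of Esco1, which acetylates cohesin, and of 3110002H16Rik.

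**Figure D4:**
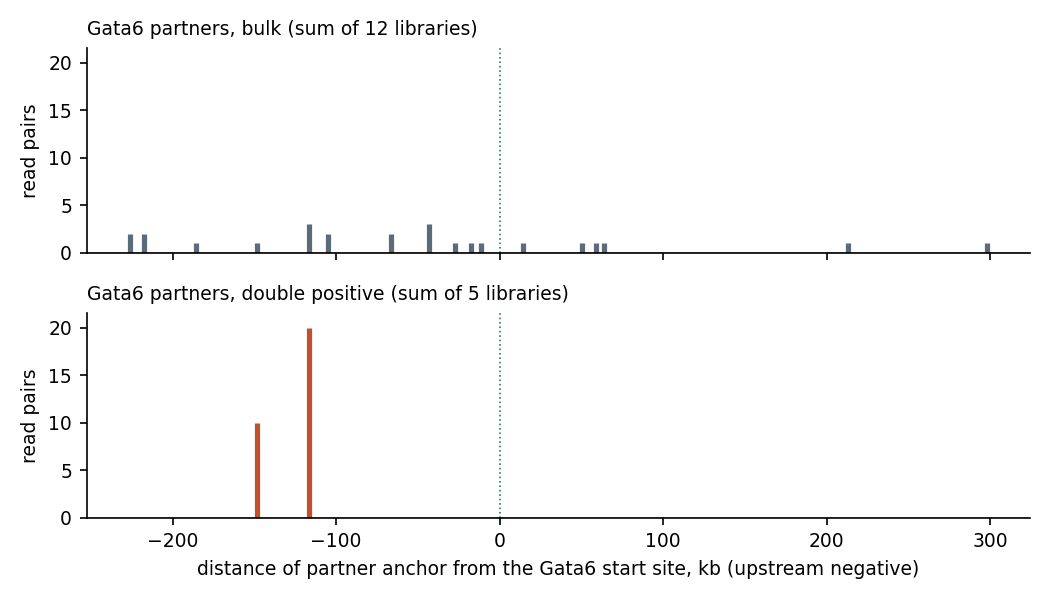
Partner anchors of Gata6 within 300 kb, by distance of their middle from the start site (horizontal axis, kb, upstream negative) and summed read pairs (vertical axis), above for the 12 bulk and below for the 5 double positive libraries. Double positive read pairs stand at 2 upstream anchors with 20 and 10 read pairs, whereas bulk read pairs are spread over many anchors with 3 or fewer each.

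The share of read pairs in loops longer than 100 kb gave no stable difference for either gene. For Gata4 it was 29.0% ± 9.01 (SD, n = 5) in double positive cells and 58.2% ± 24.9 (SD, n = 12) in bulk, a difference of -29.2 percentage points (exact permutation test, adjusted p = 0.0246 over both genes). The main upstream loop is 94.8 kb long, just below this limit, and at a limit of 50 kb the difference was 16.2 points in the other direction (exact permutation p = 0.0632). For Gata6 the share was 100% in all 5 double positive libraries. In the bulk libraries that had a Gata6 read pair it was 56.5% ± 36.0 (SD, n = 10). All double positive Gata6 read pairs lay on shared anchors, and all 7 Gata6 loops there were longer than 100 kb. The 100% cannot be told apart from the anchors these libraries have, so no test is given. At 200 kb the difference turned to -22.1 points (exact permutation p = 0.189). Bulk replicates 5, 9 and 11 had 1 Gata6 read pair each, and bulk replicate 12 had 1 Gata4 read pair. Their shares could only be 0 or 100%, yet they weigh as much as those of fuller libraries. On shared anchors the Gata4 difference was 18.3 points (exact permutation p = 0.0859). That of Gata6 was 0 there, which was fixed in advance because none of its loops on shared anchors was shorter than 100 kb.

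Among the other GATA genes none passed as higher with the main scaling, where 20.6% of all genes did. With library size alone Gata5 (1.45, adjusted p = 0.00827, edgeR) and Gata2 (1.81, adjusted p = 0.00512, edgeR) passed as higher. So did 55.3% of all genes with library size alone, where the median log2 fold change of all genes was 1.21. Gata5, a close relative of Gata4 and Gata6, had 24.3 ± 9.05 CPM against 32.2 ± 24.7 in bulk (log2 fold change -0.28, adjusted p = 0.645, edgeR). Gata2, known from blood progenitors, had 20.9 ± 19.3 against 20.7 ± 29.9 CPM. On shared anchors bulk kept 1 of its Gata2 read pairs and double positive libraries kept 24. Gata3 had 23 read pairs in bulk and none in double positive libraries, whose loops used no anchor at its start sites, so that no size of change can be given. Gata1, the factor of red blood cells, had no read pair in any library.

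Of 16 genes whose products work with GATA factors, 13 were tested, 2 rose and 5 fell, beside 20.6% and 42.8% of all genes. The median log2 fold change was -0.05 beside -0.52 for all genes. Of the 5, 4 had no double positive read pair. On shared anchors 3 of 9 rose and none fell, where 25.7% of 9845 genes rose and 988 genes fell, and 2 of these 3 had fewer than 20 bulk read pairs there. With library size alone 8 rose and 4 fell, beside 55.3% and 26.2% of all genes. Foxa2, a forkhead factor of endoderm, rose with a log2 fold change of 1.51 (SE 0.26, adjusted p = 5.5e-06, edgeR). Smad1, which carries BMP signals, fell by 2.41 on the log2 scale. With library size alone it stood at -0.68 and did not pass (adjusted p = 0.113, edgeR). On shared anchors it stood at -0.45, with 15 bulk and 23 double positive read pairs. Srf, Ep300 and Zfpm1, the gene of the GATA cofactor FOG1, stood at 0.07, 0.28 and 0.50 and did not pass. Among the others that fell, Mef2c, Klf5 and Smad4 had no double positive read pair.

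Among genes known as GATA targets in extraembryonic endoderm some were called higher and some lower, the latter mostly genes without a double positive read pair. Of 23 genes, 21 were tested, 8 were higher, 6 were lower and 7 did not pass, where 20.6% of all genes were higher and 42.8% lower, with a median log2 fold change of 0.62 beside -0.52 for all genes. Of the 6 lower ones, 5 had no double positive read pair. The remaining one was Dab2, which stood at 0.27 with library size alone and did not pass (adjusted p = 0.608, edgeR). On shared anchors 11 of 16 were higher and none was lower, where 25.7% of all 9845 genes were higher and 988 genes were lower, and 7 of the 11 had fewer than 20 bulk read pairs there. With library size alone 15 were higher and 5 lower, beside 55.3% and 26.2% of all genes. The largest CPM was that of Krt18, a keratin of simple epithelia, with 612 ± 101 in double positive cells and 75.9 ± 32.7 in bulk (log2 fold change 2.96, adjusted p = 1.33e-13, edgeR). Sparc, the gene of a matrix protein, had a log2 fold change of 1.61, and the collagen genes Col4a1 and Col4a2, which share a promoter region and hence the same double positive read pairs, had 1.99 and 1.66. Of the laminin genes, Lamb1 stood at 1.76 (adjusted p = 8.58e-06, edgeR) and Lama1 at -0.41 (adjusted p = 0.265, edgeR), or 1.67 on shared anchors. Nid1 had no read pair in any library. Cubn, an endocytic receptor of visceral endoderm, had 228 ± 21.5 against 156 ± 131 CPM (log2 fold change 0.51, adjusted p = 0.132, edgeR), and 1.88 on shared anchors. The laminin gene Lamc1 and the liver and visceral endoderm factor gene Hnf4a had 323 and 262 bulk read pairs and none in double positive cells. Their start sites had no anchor that the double positive loops used, so that no size of change can be given.

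Markers of endoderm and of other cell types were counted in the same way. Of 11 endoderm markers 10 were tested: 1 was higher (Foxa2), 3 were lower, with Hnf4a and Dab2 among them, and 6 did not pass, where 20.6% of all genes were higher and 42.8% lower. The median log2 fold change was 0.46. On shared anchors 3 of 8 were higher and none was lower, where 25.7% of all 9845 genes were higher and 988 were lower. Bulk read pairs there were below the minimum for a test in 6 of the 8, and in 1 of the 3 higher ones, Sox17. With library size alone 7 were higher and 2 lower, where 55.3% and 26.2% of all genes were. Dab2, an endocytic adaptor of visceral endoderm, stood at -1.48 over all anchors and at 1.04 on shared ones, where bulk kept 4 read pairs. Sox17, a factor of early endoderm, had -0.57 over all anchors (adjusted p = 0.404, edgeR), and on shared ones 22 double positive read pairs and none in bulk. Summed over the list the median was 589.7 CPM in double positive libraries and 656 in bulk, and 589.7 against 353 without the 2 genes that had no double positive read pair, of which Hnf4a alone had 251 ± 105 CPM in bulk. Cubn had the most read pairs. Heart mesoderm markers, which GATA factors also regulate, had no higher gene among 6 tested and 4 lower ones, beside the same shares of all genes, and 3 of the 4 had no double positive read pair. On shared anchors 2 of 3 were lower, as were 988 of all 9845 genes, and with library size alone 1 was higher and 3 were lower, beside 55.3% and 26.2% of all genes. No median log2 fold change is given for the heart markers, because 3 of the 6 tested had no double positive read pair. Their median sum was 126 against 394 CPM, and 126 against 222 CPM over the 3 genes with double positive read pairs, with Myl7, an atrial myosin light chain, the most abundant. Myl7 fell from 204 ± 70.7 to 64.0 ± 12.2 CPM (log2 fold change -1.59), but stood at 0.18 with library size alone and did not pass (adjusted p = 0.559, edgeR). Nkx2-5, a heart homeobox gene, had 1.02 (adjusted p = 0.0681, edgeR), and 2.73 with library size alone (adjusted p = 5.09e-06, edgeR). In all, 8 of the 11 heart genes had no double positive read pair. Bulk read pairs were few as well for some of these: Tbx5 had 13, Isl1 had 5, and Hand2 had none. All 8 neural markers tested were lower, where 42.8% of all genes were, and 7 with library size alone, where Neurog1 did not pass (adjusted p = 0.0984, edgeR). They had a median log2 fold change of -3.57 and a median sum of 97.7 against 1342 CPM, led by Pax6 at 36.5 ± 13.7 against 349 ± 121 CPM. Among 3 pluripotency genes tested, Pou5f1 and Klf4 were higher with log2 fold changes of 1.06 and 1.45, and Esrrb, with no double positive read pair, was lower. Of all genes 20.6% were higher and 42.8% lower. With library size alone 2 of the 3 were higher and 1 was lower, beside 55.3% and 26.2% of all genes. On shared anchors Pou5f1 had 56 double positive and 13 bulk read pairs and Klf4 had 59 and 9. Untested for few counts were Nanog with 14 bulk and no double positive read pairs, Zfp42 with 12 against 5, and Dppa5a with 9 against none. The genes of the sorting proteins, Epcam and Cd38, had log2 fold changes of 1.05 and 0.65, and Cd38 did not pass (adjusted p = 0.195, edgeR). Epcam had 13 bulk and 25 double positive read pairs. It reached the minimum for a test only through the double positive libraries, so no test is given for it. On shared anchors Cd38 had 51 double positive and 6 bulk read pairs and Epcam had 25 and 9. With library size alone Cd38 passed as higher (adjusted p = 5.63e-06, edgeR), and Epcam had a log2 fold change of 2.75. The part of these cell types in the Gata4 difference was not tested.

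**Figure D5:**
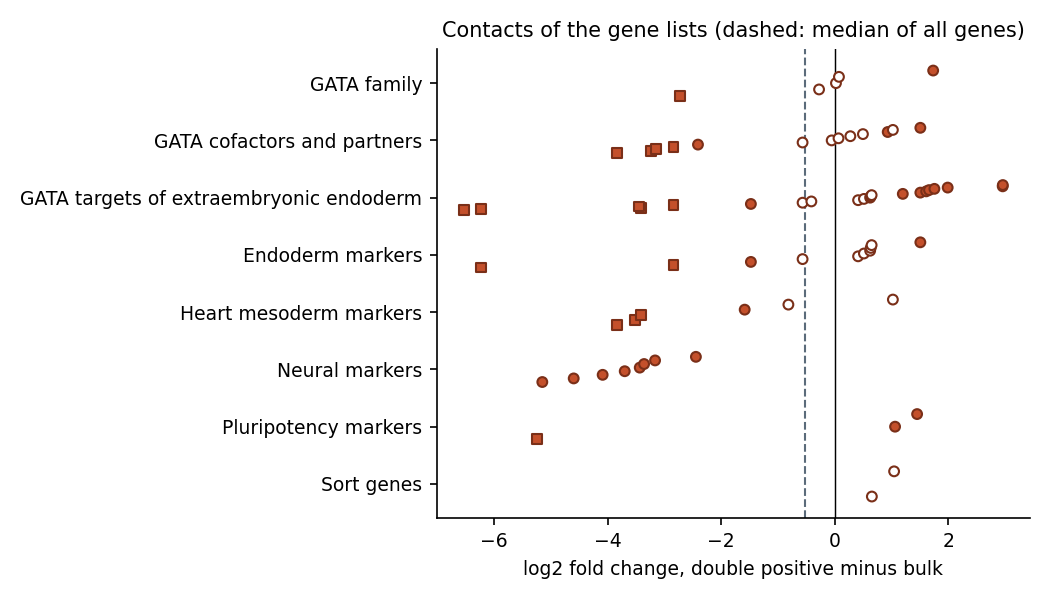
Log2 fold change of contacts, double positive minus bulk (horizontal axis), for the tested genes of each list (rows), filled where the adjusted p was under 0.05 and square where a gene had no double positive read pair and that group was set at 3, which places the point but gives no bound where the anchor is missing. The dashed line is the median of all genes at -0.52; all 8 neural points lie left of it, and the endoderm target points spread to both sides.

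The genes whose profile over the 17 libraries was most like that of Gata4 were Hmg20b, Gipc3, Atg9a, Dot1l and Npr1. Likeness was the root mean square difference of log2(CPM + 1) values after subtraction of each gene's mean, and it ranged from 0.40 to 0.41 for these genes. Hmg20b and Gipc3 share their anchors and so count as one profile. Npr1, the receptor of natriuretic peptides, had 247 ± 48.9 CPM in double positive cells and 64.5 ± 23.3 in bulk. For Gata6 the nearest were Rit1, Mical1, Dexi, Mat2b and 2010012O05Rik, at 0.74 to 0.88. Gata4 and Gata6 themselves differed by 1.59, which put Gata6 5696th in nearness to Gata4 and Gata4 647th in nearness to Gata6.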

How the data were processed

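The authors aligned the HiChIP reads to mm9 with HiC-Pro and called peaks and loops with hichipper. The deposited values are counts of read pairs per pair of anchors, without normalization. The study sorted the double positive cells in 5 runs that the labels do not tie to libraries, so the spread between libraries may be technical.

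Overlapping anchors were joined, and 700 read pairs inside a joined anchor were dropped. Counts were summed per loop, anchor and gene (GENCODE vM1). The test was edgeR's quasi-likelihood test (version 4.0.16, R 4.3.3, TMM factors, Benjamini-Hochberg over all features tested, threshold 0.05). It took features whose counts reached 20 over all libraries and were above 0 in 5 or more of them. On simulated counts with 200 genes raised 4-fold, 86% were recovered and 6.52% of calls were false. For 200 anchors these were 59% and 2.48%, and for 200 loops 45.5% and 10.8%. The simulation changed only these features, with the same dispersion for all and no missing anchors. Its rates need not hold for the real data, where many more features differ and most anchors are used by bulk alone. Other values used Python 3.11.15 and scipy 1.17.1. Alternatives were DESeq2 1.42.0, library size alone, other filters, shared anchors, spans of at least 20 kb, thinning to 50508 read pairs, a 2.5 kb window, the replicate block and leaving out each library. The 10 libraries of the block fitted without it were added after the data were seen.

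Named were both genes, their tested loops, the 6 partners with most read pairs, the 5 nearest profiles and the list genes with most read pairs; others named in a count were chosen after their values were seen. The genes and lists were chosen with earlier results of these data known. Some named genes and a sequence are not reported here.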

Additional observations from a re-analysis of the deposited data

Results flagged for a closer look

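Of 48 sets of 5 double positive values checked for a library far from the other 4, 2 stood out, at a level where chance gives about 1 in 20. They are Col4a1 and Col4a2, which rest on the same read pairs: double positive replicate 1 had 178.8 CPM for each, and the other 4 libraries lay between 283.8 and 308.2 CPM.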

How the results depend on the processing

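Gata4 contacts kept their direction in all 27 alternatives, with log2 fold changes of 1.65 to 1.82 when a library was left out. They passed the threshold in each, leaving aside shared anchors. There bulk lay below the minimum of read pairs, and no test is given. For Gata6 the log2 fold change of 0.02 became 1.76 with library size, which passed, and -0.056 with at least 50 read pairs, -0.089 after thinning, -0.28 with the replicate block, -0.31 in the same 10 libraries without the block and -0.0099 with a 2.5 kb window. It ran from -0.085 to 0.50 when a library was left out; none of these passed. The Gata6 start site anchor had a log2 fold change of 0.19, which became 1.83 with library size, past the threshold. On shared anchors it was 1.43, where bulk lay below the minimum of read pairs and no test is given. It was -0.060 with at least 50 read pairs, -0.31 with the block, -0.33 without it in the same libraries, and -0.071 to 0.50 with a library left out. Of the loops of both genes, tested mainly through their double positive read pairs, 5 were higher, but only 1 under a minimum of 50 read pairs, 2 in thinned libraries, 2 with the replicate block, 2 in the same 10 libraries, and 2 to 4 when a library was left out, in part because fewer loops then reached the filter; 2 were left without double positive replicate 1, 2, 4 or 5 and 3 without bulk replicate 8.

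The Gata4 share over 100 kb was -29.2 points, 16.2 at 50 kb, -2.37 at 200 kb and 18.3 on shared anchors, and -33.5 to -25.4 with a library left out; without double positive replicate 4 or 5 it was -26.5 or -28.3 and did not pass (exact permutation p = 0.0615 and 0.0522). The Gata6 share was 43.5 points, 32.7 at 50 kb, -22.1 at 200 kb, and 37.2 to 48.4 with a library left out. On shared anchors it was 0, as no Gata6 loop there was shorter than 100 kb. The ratio of Gata4 to Gata6 was 0.76, 1.19 with a pseudocount of 10 CPM, which passed, and 0.52 to 1.17 with a library left out. The cause of these changes was not tested.

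Over all genes, 2906 were higher and 6040 lower. Library size gave 7800 and 3702, shared anchors 2534 and 988. Lower genes numbered 3786 with at least 50 read pairs, 9771 with no filter, 2981 after thinning and 3966 with the block. Higher anchors rose from 4557 to 9879 with library size. Higher loops numbered 2044, and 4129 with library size, 334 under a minimum of 50 read pairs, 1065 in thinned libraries, 827 with the block, 1142 in the same libraries without it, and 1206 to 1924 with a library left out (1206, 1359 and 1251 without double positive replicate 1, 2 or 5). Replicate numbers did not pair the groups: deviations of same-numbered libraries correlated between -0.01 and 0.01, and the block left the Gata4 log2 fold change at 1.74. Over all libraries Gata4 had 282 read pairs and Gata6 had 77, and loops below the minimum for a test were not compared.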
